A study of Homo sapiens with 112 samples.

Results

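The genes described here encode the machinery that carries cargo in membrane vesicles between the endoplasmic reticulum (ER) and the Golgi apparatus. They are 40 genes chosen by symbol from general knowledge of COPII and COPI transport, not by a cut on their values. Earlier results of these data were known when they were chosen, so the choice was not independent of the data. A gene was tested in a cell line where at least 10 reads were counted in at least 4 of its libraries. By this rule 39 of the 40 were tested in at least 1 line, 38 in VCaP and 39 in LAPC4 cells, while 20892 of the 58684 annotated genes in the count table were tested in at least 1 line. SEC16B was tested in neither line, with at most 2 reads in a VCaP library and 0 reads in every LAPC4 library. COPZ2 was not tested in VCaP cells, where no library had more than 9 reads, and it had at most 34 reads in LAPC4 libraries.

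VCaP and LAPC4 are established androgen-responsive lines of human prostate cancer, and each stands here for a single line rather than for many tumours. VCaP cells carry a fusion of TMPRSS2 with ERG. Both lines were starved of hormone (10% charcoal-stripped serum, 2 days) and then treated for 8 or 22 h with the solvent DMSO, with 1 nM R1881, a synthetic androgen, or with 1 nM R1881 together with darolutamide, a drug that blocks the response to androgen, at 500 nM or 2 µM. Messenger RNA was sequenced in 112 libraries. VCaP cells gave 10 libraries with DMSO and 10 with R1881 at 8 h, 8 and 9 at 22 h, and at either time 4 with the 500 nM dose and 5 with the 2 µM dose. LAPC4 cells gave 10 libraries with DMSO at 8 h and 7 at 22 h, 10 with R1881 at each time, and 5 for each dose at each time. No group received darolutamide without R1881.

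The libraries held between 12188455 and 25201678 reads in genes, with a median of 20144050.5. ERG had 1578 to 21554 reads in VCaP and 0 to 1 in LAPC4 libraries, and the epithelial marker EPCAM had 2871 to 8482 reads over both lines, as against 0 to 9 for the leukocyte, endothelial and fibroblast markers PTPRC, PECAM1 and DCN and 4 to 40 for COL1A1. KLK3 and FKBP5, standard androgen-responsive genes, rose with R1881 at 22 h by 3.44 ± 0.07 and 5.49 ± 0.04 on the log2 scale (± standard error) in VCaP cells and by 1.65 ± 0.08 and 1.36 ± 0.04 in LAPC4 cells. Fold changes are from edgeR's quasi-likelihood test, and a gene was called where its p, adjusted by the Benjamini-Hochberg method over all genes tested, was under 0.05. The labels name the libraries of a group as replicates without saying whether they were separate cultures, so p-values measure only the spread between these libraries, which may be technical. In bulk libraries a change in the makeup of the culture and a change in the RNA of each cell cannot be told apart.

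COPII vesicles bud from the ER. The small GTPase SAR1, switched on by the exchange factor PREB, recruits an inner coat of SEC23 and SEC24, in which SEC24 binds the cargo, and an outer cage of SEC13 and SEC31 closes over it at exit sites organised by SEC16. COPI vesicles run from the Golgi back to the ER and within the Golgi, with a coatomer that is recruited by ARF GTPases after their activation by GBF1. The p24 proteins of the TMED family, the KDEL receptors, the lectins LMAN1 and LMAN2 and the receptor SURF4 select or retrieve cargo, and USO1 tethers the vesicles to their target. Prostate epithelium is a secretory tissue, and much of its androgen-dependent product, KLK3 among it, leaves the cell by this route.

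The sequence TGACGTGG, which is known as a core of sites for bZIP factors of the unfolded protein response and of the CREB3 family, stood in the promoters of 10 of the 35 genes with a RefSeq window (28.6%). A window holds 250 bases before and 50 bases after the annotated start, a gene can have several, and it was counted where any of them held TGACGTGG on either strand. This was so for 0.927% of all 27305 genes with a window and for 1.11% of the 10716 other genes tested in VCaP cells. Counted by window, it stood in 11 of the members' 50 windows (22%) and in 0.729% of all 35116. Windows were missing for SEC24D, ARF4, TMED9, KDELR2 and USO1. The matches are shown because members from each coat shared this stretch, and because they include KDELR3, whose expression moved most. Each line gives 28 bases on the strand of the gene, from RefSeq on GRCh38.p14, with the match in capitals, so that CCACGTCA is TGACGTGG on the other strand:
COPA, minus strand, chr1:160343228-160343255: agagggtcgcTGACGTGGaggcgtccga
SEC16B, minus strand, chr1:177984298-177984325: tctgggcagcTGACGTGGcaacacagtt
ARF1, plus strand, chr1:228082682-228082709: ccggaggcgcTGACGTGGccgccgtcag
COPB2, minus strand, chr3:139389826-139389853: ctcagcggcaCCACGTCAcggcccttag
COPB2, minus strand, chr3:139389633-139389660: cccggaagttCCACGTCAgtcagtctga
SEC24A, plus strand, chr5:134648596-134648623: tgagagtcggTGACGTGGcggcgaggcc
SEC16A, minus strand, chr9:136484708-136484735: ggccctggtgCCACGTCAgccggactga
GBF1, plus strand, chr10:102245527-102245554: aggctagttaCCACGTCAgtgagctgac
COPB1, minus strand, chr11:14499842-14499869: ccacccccttCCACGTCAgccaaggact
SEC23A, minus strand, chr14:39103222-39103249: cccctcctctTGACGTGGcagaggcggc
KDELR3, plus strand, chr22:38468040-38468067: gccgccctggCCACGTCAccgcccggcc

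In KDELR3 the match lay at bases -46 to -39 from the RefSeq start. It is printed within 232 bases, chr22:38467846-38468077 on the plus strand, that end just before the GENCODE start of the gene, which lies upstream of the RefSeq start, because this gene had the largest change of all members:
KDELR3: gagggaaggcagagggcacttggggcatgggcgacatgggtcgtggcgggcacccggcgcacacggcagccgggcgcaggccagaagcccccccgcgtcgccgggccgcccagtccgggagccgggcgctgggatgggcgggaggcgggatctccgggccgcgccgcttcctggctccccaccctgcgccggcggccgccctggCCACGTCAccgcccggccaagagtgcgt

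The other letters searched, also on both strands, gave the following shares of genes. TGACGT, which every TGACGTGG contains, stood in a window of 15 of the 35 genes (42.9%), as against 9.64% of all genes with a window and 13.6% of the other tested genes. CCGGAAG, the core bound by ETS factors, stood in a window of 20 (57.1%), as against 12.2% and 21.1%. AGAACA, the 6-base unit that an androgen response element repeats, stood in that of 1, TMED3 (2.86%), as against 17.5% and 12.9%. The ER stress elements ERSE and ERSE-II stood in a window of 0 of the 35, and of 0.0916% and 0.0696% of all genes with a window. A match in these letters is a description of the sequence and is no measurement of binding.

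In VCaP cells R1881 raised nearly the whole vesicle machinery at 22 h. Of the 38 genes tested, 37 were higher and 1, SEC31B, was lower, where 77.4% of all 19266 genes were called, 37.4% higher and 40% lower. The share called was thus high over all genes, and the 37 higher members stand against 37.4% of all genes higher. The members' median log2 fold change was 1.13, and that of all genes tested -0.03. Past an absolute log2 fold change of 1, 25 members were higher and 1 lower, with 9.52% of all genes higher and 14.3% lower by the same measure. The lowest R1881 library lay above the highest DMSO library for 36 of the 40 genes, the reverse held for SEC31B, and COPG2, SEC16B and COPZ2 overlapped. Overlap was counted for the members only, so its share over all genes is not known, and the 77.4% called by adjusted p is a different measure. With only replicates 1 to 5 of both groups 37 members were higher and 1 lower, and with replicates from 6 onward 36 and 1. Scaled to library totals, the median of all genes moved to -0.15 and that of the members to 1.02, and 36 members were higher and 1 lower, with COPG2 no longer called.

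As a share of all TMM-scaled reads, that is, reads set against library sizes scaled by the trimmed mean of M values, the members' sum rose in VCaP cells from under 1% to over 1%. In DMSO at 22 h the lowest, median and highest libraries had 0.479%, 0.487% and 0.500%. In R1881 they had 1.03%, 1.09% and 1.13%. In LAPC4 cells the DMSO libraries already stood at 1.03%, 1.03% and 1.06%, and the R1881 libraries at 1.03%, 1.04% and 1.05%, within the range of their controls at the top and level with it at the bottom.

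**Figure D1:**
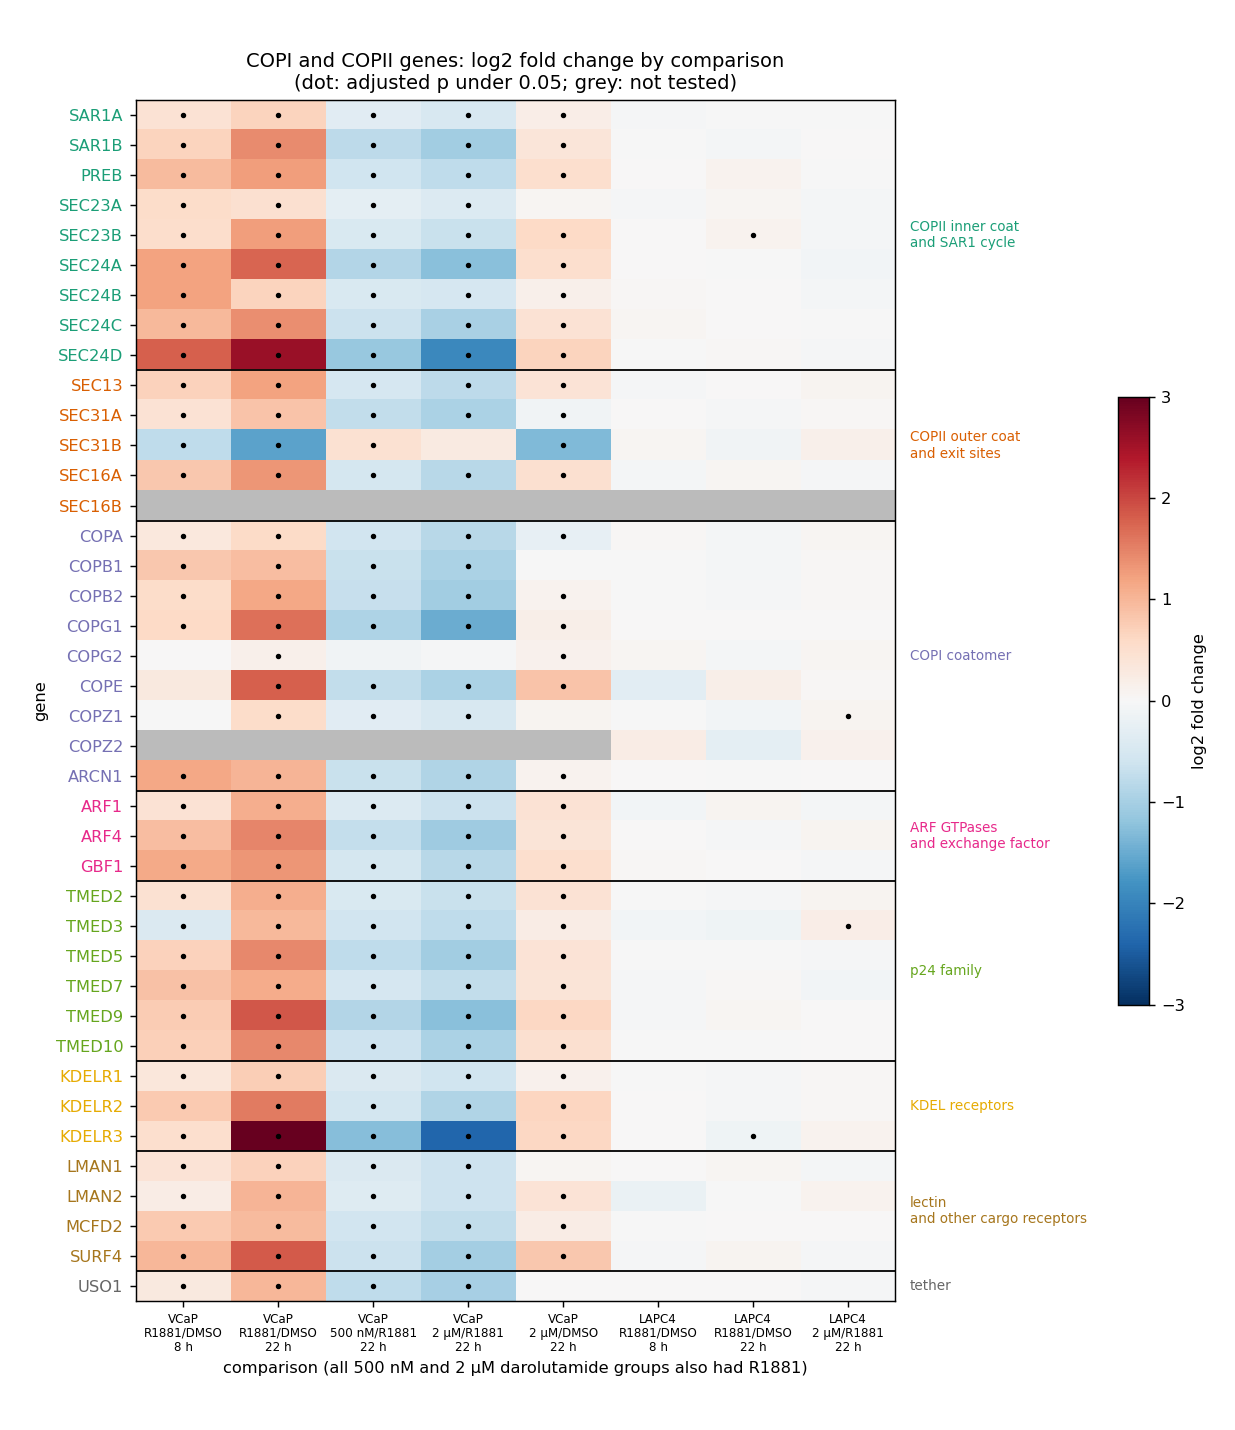
Log2 fold change (colour, red higher and blue lower) of each member gene (rows, grouped by role) in 8 comparisons (columns), with a dot where the adjusted p was under 0.05 and grey where a gene was not tested. The second column, the VCaP response to R1881 at 22 h, is red for 37 genes and blue for SEC31B, the darolutamide columns against R1881 are blue for nearly all, and the LAPC4 columns are close to white.

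In the COPII inner coat and the SAR1 cycle 9 of 9 genes rose, with a median of 1.26. The member that moved most among them was SEC24D, one of the 4 SEC24 paralogues that bind cargo (chr4:118722823-118838683, GRCh38, minus strand). Its level in CPM (counts per 1000000 TMM-scaled reads) was 28.6, 29.4 and 31.2 in the lowest, median and highest DMSO library at 22 h and 168, 180 and 194 in R1881. The ranges were far apart, and the fold change was 2.60 ± 0.04 (95% interval 2.52 to 2.68, adjusted p = 8.27e-50 by edgeR). SEC24A rose by 1.75 ± 0.04, SEC24C by 1.40 ± 0.03 and SEC24B by 0.66 ± 0.04, so that the 4 paralogues were not raised to the same extent. SEC24A and SAR1B overlap on opposite strands at one locus, and since the strand setting of the counting is not given in the sources used here, reads of the shared stretch may be split between them.

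SEC23B, the GTPase-activating partner of SEC24 in the inner coat (chr20:18507520-18561415, plus strand), had 126, 131 and 136 CPM in the lowest, median and highest DMSO library and 294, 317 and 330.2 in R1881. These ranges did not overlap, and it rose by 1.26 ± 0.03 (adjusted p = 4.08e-41, edgeR). Its paralogue SEC23A rose by 0.47 ± 0.04, the smallest change of the inner coat. SAR1B, the GTPase form tied to the export of large lipoproteins, rose by 1.43 ± 0.06, SAR1A by 0.67 ± 0.04 and the exchange factor PREB by 1.26 ± 0.05.

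The outer coat held the single exception. SEC31B, a little-expressed paralogue of the cage protein SEC31A (chr10:100486646-100519864, minus strand), had 2.67, 4.63 and 6.87 CPM in the lowest, median and highest DMSO library and 1.12, 1.64 and 1.93 in R1881. Every R1881 library lay below every DMSO library, and it fell by 1.60 ± 0.15 on the log2 scale (95% interval -1.90 to -1.31, adjusted p = 1.35e-14, edgeR). These values rest on 35 to 133 reads in DMSO and 23 to 37 in R1881 libraries, and the gene overlaps ENSG00000255339. SEC31A itself rose by 0.85 ± 0.03, SEC13, the other cage protein, by 1.21 ± 0.06, and SEC16A, the exit-site scaffold, by 1.31 ± 0.06, which gave 3 higher and 1 lower of the 4 tested, with a median of 1.03.

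All 8 tested subunits of the COPI coatomer rose, with a median of 0.97, but by unequal amounts. COPG1, a gamma subunit, had 120.1, 132 and 144 CPM in the lowest, median and highest DMSO library and 402, 410.2 and 429 in R1881, without overlap, a rise of 1.65 ± 0.03. The alternative gamma subunit COPG2 had 35.4, 37.4 and 43.2 CPM in DMSO and 40.5, 41.6 and 46.3 in R1881, so that the ranges overlapped, and its change was 0.16 ± 0.04 (adjusted p = 0.000489, edgeR). It was no longer called when libraries were scaled to their totals, and it overlaps TSGA13 and MEST.

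COPE, the epsilon subunit (chr19:18899514-18919387, minus strand), spread most between libraries. It had 5.68, 10.7 and 15.7 CPM in the lowest, median and highest DMSO library and 21.1, 36.7 and 48.5 in R1881. The groups did not overlap, and the change was 1.80 ± 0.20 (adjusted p = 9.65e-12, edgeR), the largest standard error of the machinery, for a transcript with 62.1% GC. COPB2 rose by 1.15 ± 0.03, ARCN1, the delta subunit, by 1.01 ± 0.03, COPB1 by 0.93 ± 0.04, COPA by 0.58 ± 0.03 and COPZ1 by 0.55 ± 0.03. The ARF step upstream of the coatomer moved with it in 3 of 3 genes, with ARF4 at 1.46 ± 0.04, the exchange factor GBF1 at 1.31 ± 0.03 and ARF1 at 1.09 ± 0.08.

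The 6 p24 genes all rose, with a median of 1.27. TMED9 (chr5:177592203-177597242, plus strand) had 64.6, 76.3 and 81.2 CPM in the lowest, median and highest DMSO library and 255, 271 and 284 in R1881. The groups were well apart, and the change was 1.86 ± 0.05 (adjusted p = 2.25e-39, edgeR). TMED5 rose by 1.44 ± 0.05, TMED10 by 1.43 ± 0.03, TMED7 by 1.12 ± 0.06, TMED2 by 1.10 ± 0.03 and TMED3 by 0.98 ± 0.04. TMED7 shares its locus with the read-through gene TMED7-TICAM2, so its count is less certain.

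KDEL receptors capture ER chaperones that have escaped to the Golgi and return them in COPI vesicles. KDELR3 (chr22:38468078-38483447, plus strand), whose promoter is printed above, had 0.961, 1.76 and 2.16 CPM in the lowest, median and highest DMSO library at 22 h and 11.4, 13.5 and 15.6 in R1881, from 19 to 48 and 200 to 295 reads. The R1881 libraries all lay far above the DMSO libraries, and the fold change of 2.99 ± 0.11 (95% interval 2.77 to 3.203, adjusted p = 6.03e-32, edgeR) was the largest of the machinery. KDELR2 rose by 1.55 ± 0.05 and KDELR1 by 0.73 ± 0.03. KDELR3 overlaps DDX17 on the other strand, and KDELR2 overlaps DAGLB on the same strand.

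Of the receptors for cargo leaving the ER, SURF4 (chr9:133361450-133376166, minus strand) moved most. It had 131, 146 and 159.6 CPM in the lowest, median and highest DMSO library and 481, 514 and 555 in R1881. No library of one group reached the other, and the rise was 1.84 ± 0.04 (adjusted p = 4.39e-45, edgeR). LMAN2 rose by 1.02 ± 0.11, MCFD2, the partner of LMAN1 in the export of clotting factors, by 0.96 ± 0.03 and LMAN1 by 0.68 ± 0.04. The tether USO1 rose by 1.00 ± 0.04.

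**Figure D2:**
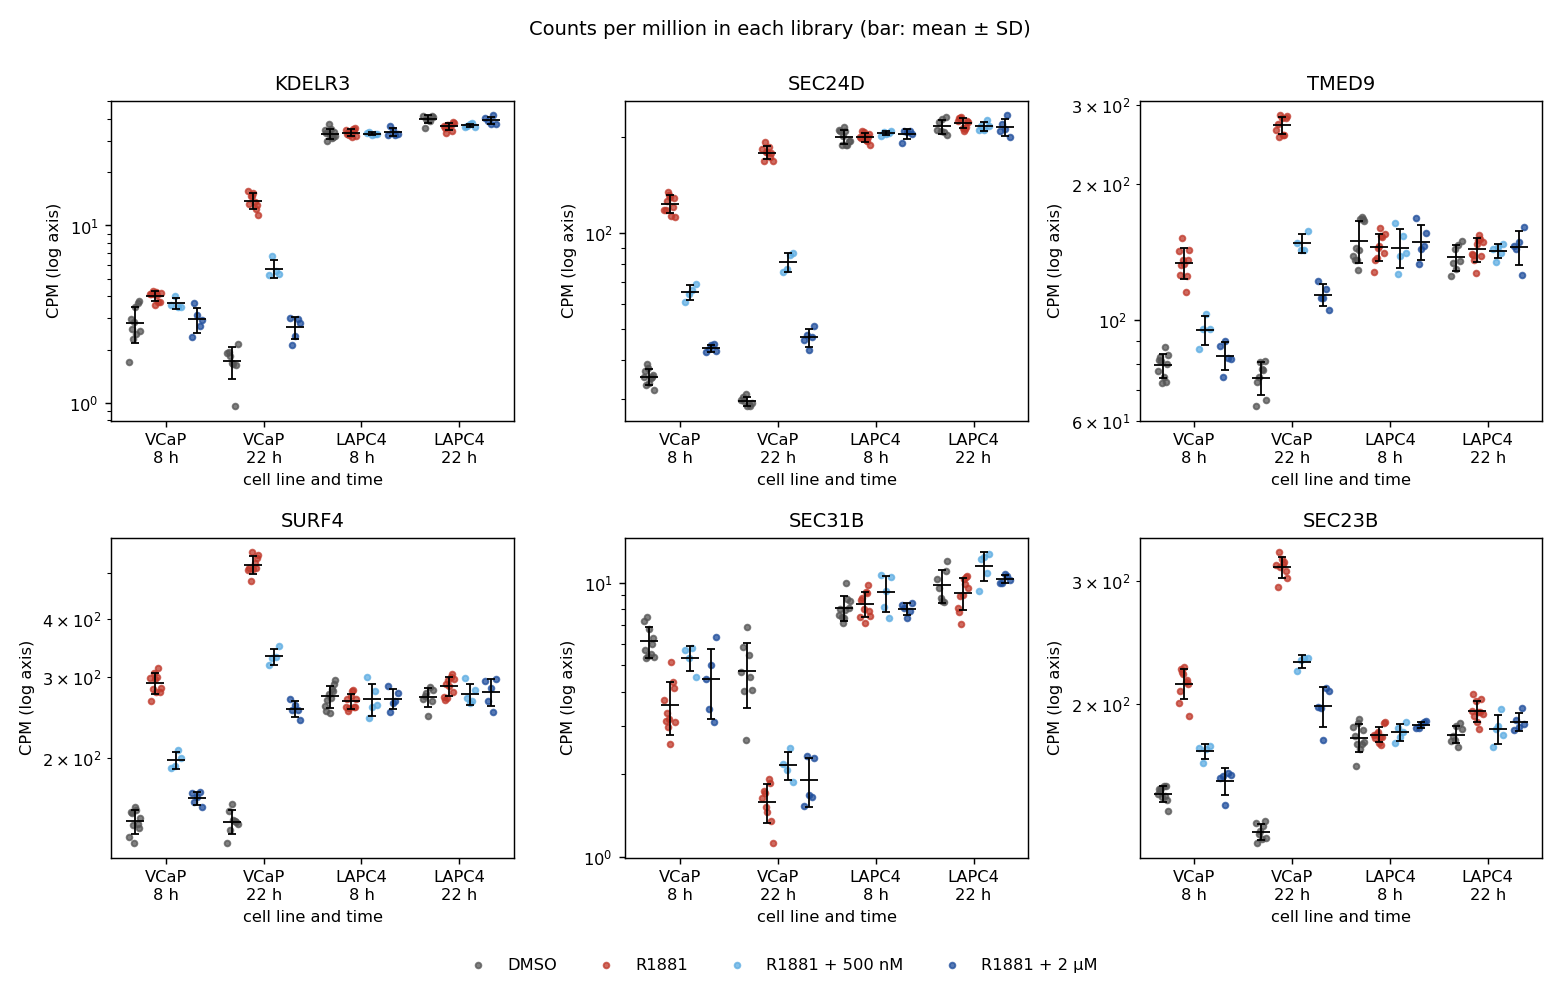
CPM (log axis) of KDELR3, SEC24D, TMED9, SURF4, SEC31B and SEC23B in every library, by cell line, time and treatment, with bars for the mean ± SD. In VCaP cells at 22 h the R1881 libraries of KDELR3 lie at 11.4 to 15.6 CPM and the DMSO libraries at 0.961 to 2.16, whereas in LAPC4 cells both groups lie at 33.2 to 41.6.

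Levels between genes were compared as CPM per kb of transcript. In VCaP cells in DMSO at 22 h the 3 KDEL receptors differed widely, with KDELR1 at 126, KDELR2 at 17.6 and KDELR3 at 1.02 CPM per kb. With R1881 their levels were 209, 51.5 and 8.12 CPM per kb, so that the order was kept. KDELR3 thus had the largest fold change from the lowest level of the family.

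The levels of the coatomer subunits, which assemble into one complex, were also unequal in DMSO. COPZ1 had 84.9, COPB1 71.7, COPB2 68.2, ARCN1 60.4, COPA 46.7 and COPG1 42.9 CPM per kb, while COPG2 had 12.1 and COPE 9.45. With R1881 the levels were 125, 137, 152, 122, 69.8 and 134 CPM per kb in the same order of genes, with COPG2 at 13.5 and COPE at 32.6. COPG1 moved from the sixth to the third place among the subunits, and COPG2 stood below the first 6 in both groups.

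Among the cargo-binding SEC24 paralogues, SEC24C had the highest level in DMSO, 38.2 CPM per kb, and SEC24D the lowest, 7.36, with SEC24B at 12.8 and SEC24A at 8.20. With R1881 SEC24C had 101, SEC24D 44.6, SEC24A 27.5 and SEC24B 20.2 CPM per kb. SEC24D went from the last to the second place. In LAPC4 cells in DMSO SEC24D already held the second place, with 53.9 CPM per kb below SEC24C at 93.2.

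The balance between paralogues was followed as the log2 ratio of their CPM within each library, which describes a shift and not a difference in level. In VCaP cells at 22 h the ratio shifted with R1881 in 9 of 9 pairs, as against 1 of 9 in LAPC4 cells, by two-sided exact permutation tests with Benjamini-Hochberg adjustment over the 18 tests. Other gene pairs were not tested, so the share of all pairs that shift is not known. Of single genes, 77.4% of all those tested were called in VCaP cells and 13.3% in LAPC4 cells in this comparison. COPG1 to COPG2 went from a mean of 1.79 in DMSO to 3.29 in R1881, and KDELR3 to KDELR2 from -4.86 to -3.39. SEC31B to SEC31A went the other way, from -5.52 to -7.93.

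SEC24D to SEC24C rose from -2.52 to -1.33, SEC24A to SEC24B from -0.31 to 0.77, SEC23B to SEC23A from 1.01 to 1.80, SAR1B to SAR1A from -1.32 to -0.57 and KDELR2 to KDELR1 from -1.99 to -1.18. In these 8 pairs no R1881 library overlapped a DMSO library, and each had the smallest p that the permutations can give, 8.23e-05 (0.000185 adjusted). ARF4 to ARF1 overlapped, with means of 1.42 and 1.79 (exact p = 0.00634, 0.0127 adjusted). The shift in LAPC4 cells was that of SEC23B to SEC23A, from 0.26 to 0.31 (exact p = 0.00854, 0.0154 adjusted), with overlapping groups.

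**Figure D3:**
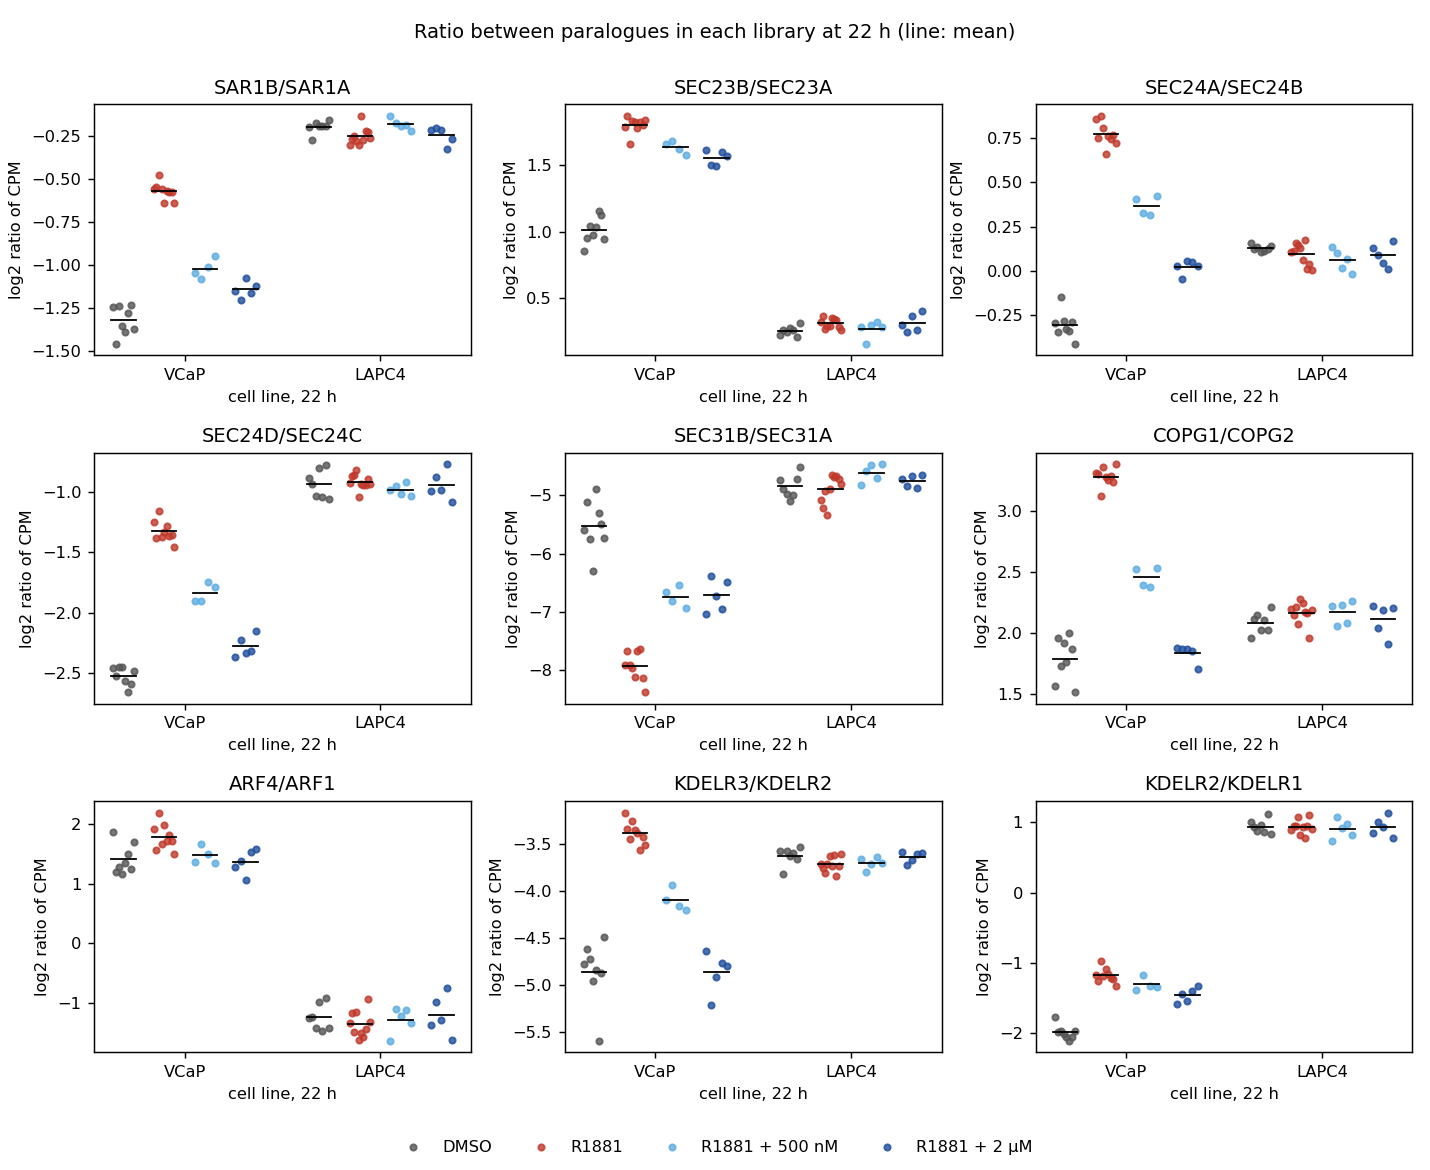
Log2 ratio of the CPM of paralogues in each library at 22 h, by cell line and treatment, with a line for each mean. In VCaP cells COPG1 to COPG2 lies higher in R1881 (mean 3.29) than in DMSO (1.79), SEC31B to SEC31A lies lower (-7.93 and -5.52), and in LAPC4 cells the groups of every pair overlap.

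At 8 h the response of VCaP cells was smaller and less uniform. Of 38 genes 33 were higher and 2 lower, with 66.9% of all genes called, 32.8% higher and 34.1% lower. The median was 0.64, and 5 genes passed a log2 fold change of 1, against 6.35% of all genes. SEC24D led with 1.80 ± 0.04, from 32.2, 35.4 and 38.7 CPM in the lowest, median and highest DMSO library to 112, 124 and 135 in R1881, again without overlap. SEC24B at 1.22, SEC24A at 1.20, ARCN1 at 1.16 ± 0.03 and GBF1 at 1.15 followed. R1881 libraries lay above DMSO libraries for 31 genes and below for 2, and 7 of the 40 overlapped. The share of all genes without overlap was not counted, and 66.9% of all genes were called by adjusted p.

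TMED3 changed direction between the time points. At 8 h it had 109, 119 and 123 CPM in the lowest, median and highest DMSO library and 79.8, 85.8 and 95.6 in R1881, all lower, a fall of 0.42 ± 0.03 on the log2 scale. At 22 h it had 103, 115 and 128 CPM in DMSO and 208, 228 and 238 in R1881, all higher. SEC31B was lower at both times, by 0.77 ± 0.12 at 8 h, with 5.32, 5.83 and 7.47 CPM in DMSO and 2.57, 3.27 and 5.16 in R1881. COPG2 (0.01), COPZ1 (-0.01) and COPE (0.30 ± 0.18, adjusted p = 0.139, edgeR) were not called at 8 h.

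KDELR3 was the clearest late gene. Its 8 h libraries had 1.70, 2.74 and 3.74 CPM in DMSO and 3.58, 4.12 and 4.29 in R1881, which overlapped, and its change was 0.49 ± 0.10 at that time. At 22 h its R1881 libraries had 11.4 to 15.6 CPM. Its mean DMSO level was 1.67 CPM per kb at 8 h and 1.02 at 22 h, so part of its difference between the times lies in the controls. The difference between the R1881 effects at 22 and 8 h, tested as an interaction in edgeR, was 2.49 ± 0.15 for KDELR3, 1.503 ± 0.27 for COPE, 1.40 ± 0.05 for TMED3 and 1.04 for COPG1. It was positive for 34 members and negative for 3, with 60.4% of all genes called, 28.1% positive and 32.3% negative, and a median of 0.54. The 3 with a smaller or more negative effect at 22 h were SEC24B (-0.56 ± 0.05), SEC31B (-0.83 ± 0.19) and ARCN1 (-0.14 ± 0.04), and SEC23A (-0.09) was not called.

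SEC24B and ARCN1 thus had their larger change early. SEC24B had 61.4, 63.2 and 68.6 CPM in the lowest, median and highest DMSO library at 8 h and 134, 152 and 162 in R1881. At 22 h it had 59.2, 64.6 and 70.03 in DMSO and 95.6, 102 and 110.1 in R1881. The DMSO ranges were alike at both times, and the R1881 libraries of 22 h all lay below those of 8 h. For the 8 h comparison the scaling mattered more than for that of 22 h: with library totals the median of all genes moved from -0.03 to -0.18, the share of all calls that were higher from 49.1% to 34%, and the members to 32 higher and 4 lower, with COPG2 and COPZ1 called lower and LMAN2 not called.

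**Figure D4:**
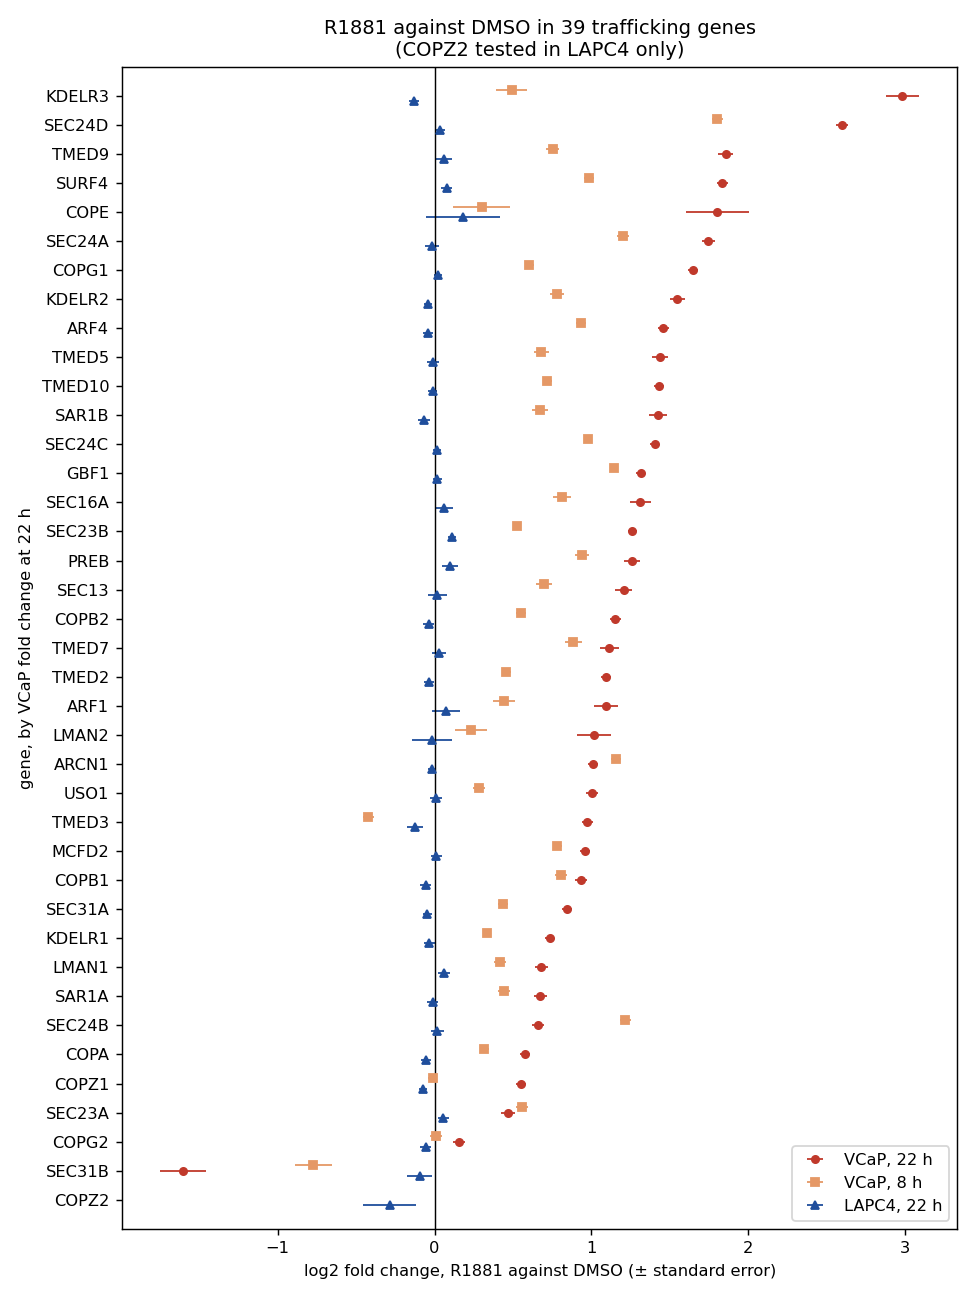
Log2 fold change (± standard error) of R1881 against DMSO for 39 genes, ordered by the VCaP value at 22 h, in VCaP cells at 22 h and 8 h and in LAPC4 cells at 22 h. The VCaP values at 22 h run from -1.60 for SEC31B to 2.99 for KDELR3, and the LAPC4 values lie close to 0.

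Darolutamide lowered the machinery again in VCaP cells in the presence of R1881. The comparisons below share the R1881 and DMSO libraries. At 22 h with 500 nM, 36 of 38 genes were lower than with R1881 alone and 1, SEC31B, was higher, with 53% of all genes called, 26.7% higher and 26.4% lower, and a median of -0.58. With library totals 35 members were lower and 1 higher at this dose, and the share of all calls that were higher went from 50.3% to 63.4%. With 2 µM, 36 were lower and 0 higher, with 66.9% of all genes called, 36.1% higher and 30.8% lower, and a median of -0.83. The 11 genes past a log2 fold change of -1 at 2 µM, against 6.35% of all genes, were KDELR3 (-2.37 ± 0.12), SEC24D (-1.93 ± 0.05), COPG1 (-1.48 ± 0.04), SEC24A and TMED9 (both -1.25), ARF4 (-1.07), SAR1B (-1.05), COPB2 (-1.04), TMED5 and SURF4 (both -1.03) and USO1 (-1.004). With library totals 5 genes passed.

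The 2 doses were ordered in most genes. Comparing 2 µM with 500 nM at 22 h, 29 of 38 genes were lower and 0 higher, with 20.2% of all genes called, 10.4% higher and 9.75% lower, and a median of -0.24. KDELR3 had 5.28, 6.70, 5.51 and 5.33 CPM in the 500 nM libraries and 3.02, 2.14, 2.40, 2.96 and 2.81 in the 2 µM libraries, which did not overlap, a difference of -1.10 ± 0.14. SEC24D had 75.5, 77.0, 85.5 and 86.4 CPM at 500 nM and 46.0, 47.7, 42.8, 47.3 and 51.1 at 2 µM, also without overlap, a difference of -0.79 ± 0.05. The 9 genes not called were SAR1A, PREB, SEC23A, SEC24B, SEC31B, COPG2, COPE, ARF1 and LMAN2.

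TMED9 had 148, 143, 143 and 158 CPM in the 500 nM libraries and 122, 112, 112, 117 and 106 in the 2 µM libraries. SURF4 had 318, 329, 331 and 349 at 500 nM and 268, 254, 260.1, 254 and 242 at 2 µM. SEC23B had 223, 231, 233 and 233 at 500 nM and 198, 197, 178, 211 and 209 at 2 µM. In each of these 3 genes the high-dose libraries all lay below the low-dose libraries, and both doses lay between the DMSO and the R1881 libraries.

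The return to the DMSO level at 2 µM was incomplete for most genes. Against DMSO at 22 h, 30 members were higher and 3 lower with R1881 plus 2 µM, with 59% of all genes called, 30.5% higher and 28.5% lower, and a median of 0.39. With upper-quartile scaling 24 were higher and 4 lower, and the share of all calls that were higher went from 51.7% to 40.2%. COPE (0.85 ± 0.23), SURF4 (0.81 ± 0.04), SEC24D (0.67 ± 0.05), KDELR2 (0.65), KDELR3 (0.62 ± 0.14), TMED9 (0.61) and SEC23B (0.60) had the largest remaining differences. SEC24D at 42.8 to 51.1 CPM did not overlap with its DMSO libraries, whereas KDELR3 at 2.14 to 3.02 CPM did, at its edge. SEC31A (-0.11) and COPA (-0.25 ± 0.04) were below their DMSO level, and SEC23A (0.05), COPB1 (-0.02), COPZ1 (0.08), LMAN1 (0.07) and USO1 (0.00) were not called.

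SEC31B, which fell with R1881, had 2.18, 2.08, 2.49 and 1.88 CPM at 500 nM and 1.53, 2.33, 1.67, 1.66 and 2.30 at 2 µM. Both sets lay below the lowest DMSO library at 2.67 CPM and overlapped with the R1881 libraries. Against R1881 it was 0.45 ± 0.20 at 500 nM (adjusted p = 0.0463, edgeR) and 0.27 at 2 µM (adjusted p = 0.189), and against DMSO it stood at -1.33 ± 0.17 with 2 µM.

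At 8 h the darolutamide effects were in the same order of dose. With 500 nM 30 members were lower and 1, SEC31B, higher (0.57 ± 0.16) than with R1881, with 30.6% of all genes called, 14.9% higher and 15.7% lower, and a median of -0.33. With 2 µM 33 were lower and 1, TMED3, higher (0.26 ± 0.04), with 52.1% of all genes called, 25.9% higher and 26.2% lower, and a median of -0.52. SEC31B, at 0.32 with 2 µM, was not called by edgeR with TMM factors. It was called higher by DESeq2, with library totals and with upper-quartile factors. Only SEC24D passed a log2 fold change of -1, at -1.51 ± 0.05, against 3.88% of all genes. Comparing the doses, 22 were lower at 2 µM and 1, TMED3, higher (0.19), with 17.6% of all genes called, 7.53% higher and 10% lower. With library totals 18 were lower and 1 higher, and the share of all calls that were higher went from 42.8% to 54.7%.

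Against DMSO at 8 h, 19 members were higher and 2 lower with 2 µM, SEC31B (-0.45) and TMED3 (-0.16), with 27.5% of all genes called, 15.4% higher and 12% lower, and a median of 0.10. This count was 12 with control replicates 1 to 5 only. TMED3, lowered by R1881 at this time, was thus below its DMSO level and above its R1881 level with 2 µM. With library totals 26 members were lower and 2 higher with 500 nM, and 32 lower and 4 higher with 2 µM, while the share of all calls that were higher went from 48.7% to 69.1% and from 49.8% to 67.1%.

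In LAPC4 cells the same machinery hardly moved with R1881. At 22 h 1 of 39 genes was higher and 1 lower, with 13.3% of all 18204 genes called, 6.83% higher and 6.45% lower, and 5 members at an unadjusted p under 0.05. The median was -0.01, and all 40 genes overlapped between R1881 and DMSO libraries at both times. Overlap over all genes was not counted, and by adjusted p 13.3% of all genes were called at 22 h and 2.64% at 8 h. The gene that was higher was SEC23B, with 174, 180.1 and 188 CPM in the lowest, median and highest DMSO library and 184, 195 and 207 in R1881. The ranges shared only their edges, and the change was 0.11 ± 0.03 (adjusted p = 0.000765, edgeR), and it was not called with replicates from 6 onward (0.06, adjusted p = 0.625). With library totals or upper-quartile factors 4 members were called in this comparison.

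KDELR3 was lower in LAPC4 cells, in the direction opposite to that in VCaP cells. It had 35.4, 39.8 and 41.6 CPM in the lowest, median and highest DMSO library and 33.2, 36.5 and 38.3 in R1881, overlapping over much of the range. The change was -0.13 ± 0.03 (adjusted p = 0.00513, edgeR). It was not called within replicates 1 to 5 (adjusted p = 0.0778) or within replicates from 6 onward (adjusted p = 0.075). SEC24D, with 203, 211 and 232 CPM in DMSO and 209.5, 225 and 232 in R1881, TMED9, with 125, 135 and 149.8 and 127, 144 and 155, and SURF4, with 246, 273 and 285 and 267, 288 and 303, were not called. COPZ2, the zeta subunit tested in this line alone, had 0.701, 1.10 and 1.55 CPM in DMSO and 0.574, 0.974 and 1.29 in R1881 and was not called.

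Darolutamide left few calls in LAPC4 cells. At 22 h TMED3 was higher with 2 µM than with R1881, at 137, 127, 133, 115 and 143 CPM against 103, 115 and 125 in the lowest, median and highest R1881 library (0.19 ± 0.06, adjusted p = 0.0173, edgeR). COPZ1 was higher by 0.09 ± 0.03 (adjusted p = 0.0449), which made 2 of 39 genes, with 10.5% of all genes called, 5% higher. With 500 nM, SEC31B was higher, at 9.37, 12.2, 12.5, 10.8 and 12.7 CPM against 7.07, 9.29 and 10.6 in the lowest, median and highest R1881 library (0.32 ± 0.09, adjusted p = 0.0146), which made 1 of 39, with 5.89% of all genes called, 2.68% higher. These counts changed, up or down, when single libraries were left out. Without replicate 1 of the 2 µM group the count was 0 and without replicate 5 it was 4. Without replicate 2, 3 or 5 of the 500 nM group it was 0. For 2 µM, DESeq2 called 1 and not COPZ1, and with control replicates from 6 onward the count was 0, as it was for 500 nM. Other alternatives raised the counts. With control replicates 1 to 5 the 2 µM count was 4, and the replicate block gave more calls at both doses, as listed in the last section. The shares of all genes called under these alternatives are not given, so a rise particular to the members cannot be told from one over all genes.

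In the other LAPC4 comparisons edgeR called 0 members, and DESeq2 also called 0 in each. At 8 h R1881 against DMSO had 1 member at an unadjusted p under 0.05, with 2.64% of all genes called, 2 µM against R1881 had 1, with 1.54%, 500 nM had 0, with 0.626%, 2 µM against 500 nM had 0, with 0.0275%, and 2 µM against DMSO had 1, with 0.011%. At 22 h 2 µM against 500 nM had 2 at an unadjusted p under 0.05, with 0.258% of all genes called, and 2 µM against DMSO had 1, with 0.0165%. The difference between the R1881 effects at 22 and 8 h had 5, with 3.21%.

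The effect of R1881 differed between the lines in 38 of the 38 genes tested in both, and in 37 with upper-quartile factors, where COPG2 was not called. In a fit of all 16 groups, the VCaP effect at 22 h was more positive for 37 of 38 genes and more negative for SEC31B, with 68.5% of all 16578 genes called, 31.6% more positive and 36.9% more negative, and a median difference of 1.08. The difference was 3.06 ± 0.10 for KDELR3, 2.504 ± 0.06 for SEC24D, 1.74 for TMED9, 1.70 for SURF4, 1.09 ± 0.04 for SEC23B and -1.57 ± 0.16 for SEC31B. Line and laboratory handling of each line cannot be told apart in these libraries.

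The lines started from different levels. In DMSO at 22 h 34 of 38 genes were lower in VCaP than in LAPC4 cells and 4 higher, with 85.5% of all genes called, 41.4% higher and 44.1% lower, and a median difference of -0.60. The largest differences were those of KDELR3 (-4.21 ± 0.08), ARF1 (-3.09 ± 0.09), KDELR2 (-3.02 ± 0.05), SEC24D (-2.57 ± 0.04), COPE (-2.07 ± 0.24), SAR1B (-1.97), TMED10 (-1.90) and LMAN2 (-1.78). TMED7 (0.61), USO1 (0.29), MCFD2 (0.18) and TMED3 (0.17) were higher in VCaP cells, of which MCFD2 (-0.09) and TMED3 (-0.10) changed sign under library totals. With that scaling 36 were lower and 1 higher, the median of all genes moved from -0.04 to -0.31, and the share of all calls that were higher went from 48.4% to 37.9%.

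With R1881 in both lines, 25 of 38 genes were higher in VCaP cells and 12 lower, with 87.2% of all genes called, 42.4% higher and 44.8% lower, and a median difference of 0.33. This comparison was added after the values were seen. SEC24D, with a difference of -0.07 (adjusted p = 0.0665, edgeR), was the gene not called. TMED7 (1.64), USO1 (1.23), TMED3 (1.22), TMED9 (1.16), SEC24A (1.15), SURF4 (1.11), MCFD2 (1.07) and ARF4 (1.01) were higher in VCaP cells. SEC31B (-2.30 ± 0.12), ARF1 (-2.13 ± 0.08), KDELR2 (-1.49) and KDELR3 (-1.15 ± 0.06) were lower, as were LMAN2 (-0.81), SEC23A (-0.56), SAR1B (-0.53), TMED10 (-0.51), COPE (-0.50), COPG2 (-0.45), COPA (-0.28) and SAR1A (-0.22).

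**Figure D5:**
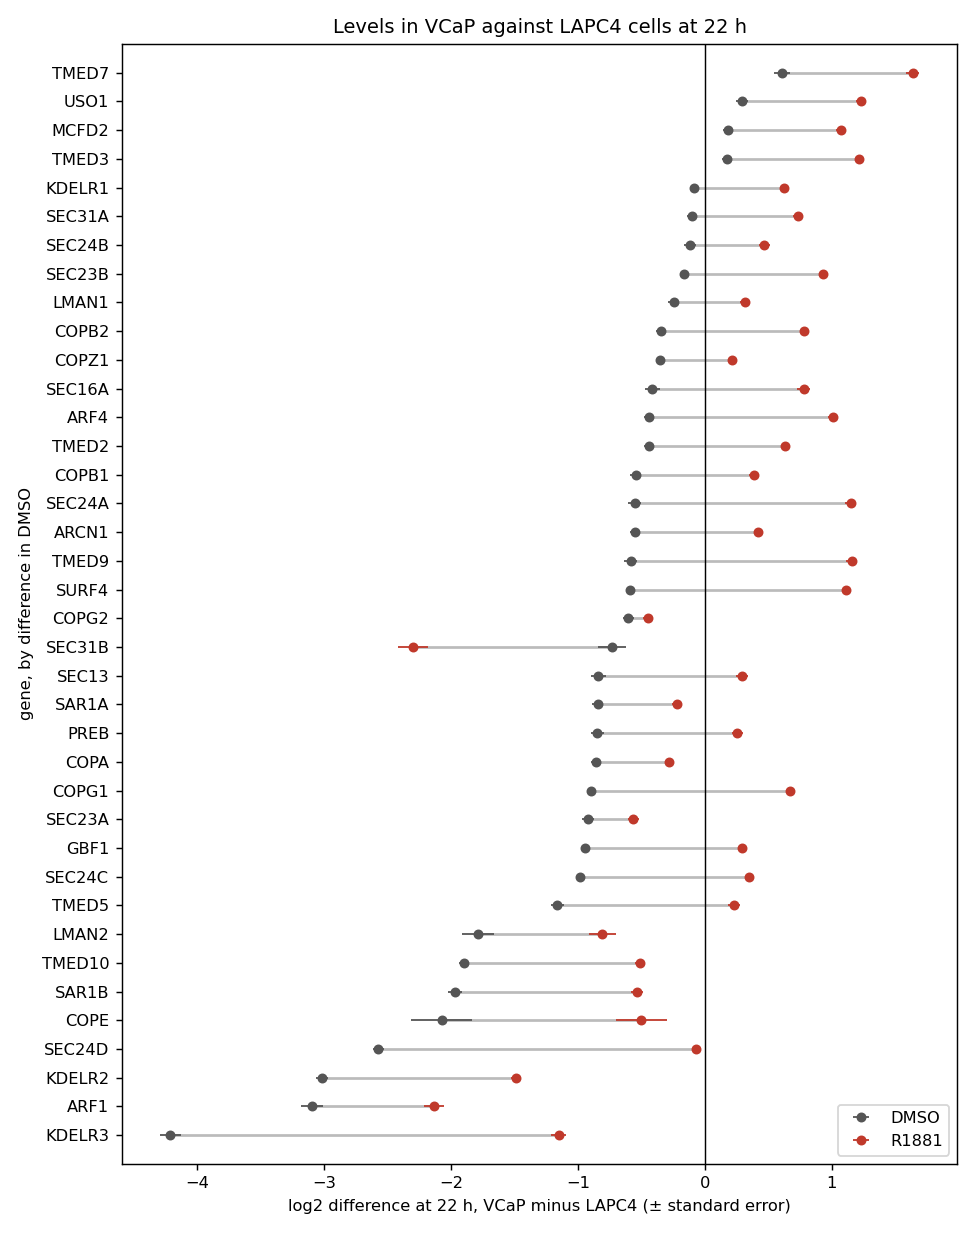
Log2 difference (± standard error) between VCaP and LAPC4 cells at 22 h for 38 genes, in DMSO (grey) and in R1881 (red), joined by a line and ordered by the DMSO value. In DMSO 34 genes lie below 0, from -4.21 for KDELR3, and in R1881 25 were called above 0 and 12 below.

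Per kb of transcript, the members' summed level in VCaP cells went from 1584 CPM per kb in DMSO to 3502 in R1881 at 22 h, while in LAPC4 cells it was 3429 in DMSO. CPM are scaled within a line, so the levels of the lines are set side by side without a test. The coatomer subunits summed to 396 CPM per kb in VCaP DMSO, 785 in VCaP R1881 and 754 in LAPC4 DMSO libraries. In the same order the p24 genes summed to 396, 910.4 and 751, and the inner coat with the SAR1 cycle to 164, 397 and 378. The KDEL receptors summed to 144, 269 and 364 and the ARF genes with GBF1 to 172, 445 and 637, and in these 2 groups the sum in VCaP R1881 libraries stood below that in LAPC4 DMSO libraries.

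Genes that work beside the coats were mostly higher too in VCaP cells at 22 h, by smaller medians than that of the members. Between 63.6% and 80% of the tested genes of each list were higher, and between 10% and 18.2% lower. Of all genes 37.4% were higher and 40% lower. Of the 22 tested genes for COPII assembly and large cargo 14 were higher and 4 lower, with a median of 0.29, and MIA3, which helps to load procollagen, fell by 1.31 ± 0.04, while TRAPPC10, a subunit of a tethering complex, rose by 0.97 ± 0.03. Of 10 other ARF GTPases and ARF regulators 8 were higher and 1 lower, with a median of 0.50, among them ARFGAP3 (1.20) and ARF6 (1.00). Of 30 SNAREs and tethers between ER and Golgi 23 were higher and 3 lower, with a median of 0.38, among them GORASP1 (1.53) and COG3 (1.29).

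Of 17 other cargo receptors of the early secretory pathway 12 were higher and 3 lower, with a median of 0.21, among them ERGIC2 (0.98) and BCAP31 (0.84). Of 9 membrane-bound and unfolded-protein-response regulators 6 were higher and 1 lower, with a median of 0.65, with the bZIP genes CREB3L2 (1.62) and CREB3L4 (1.38) foremost. In LAPC4 cells the same lists had 2 higher and 5 lower of 22, 0 and 0 of 10, 1 and 1 of 30, 0 and 2 of 16 and 0 and 1 of 9, the last being XBP1 (-0.08, adjusted p = 0.016, edgeR). In the ARF list, with 0 calls by edgeR, 0 genes had an unadjusted p under 0.05, and 13.3% of all genes were called in this comparison.

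The genes with the promoter sequences printed above were also compared by their change. The 9 tested members with TGACGTGG were all higher in VCaP cells with R1881 at 22 h, with a median of 1.15 and a range from 0.47 (SEC23A) to 2.99 (KDELR3). Of the 24 with a window and without the sequence 23 were higher and 1 lower, with a median of 1.06, so that members with and without it were alike in direction. Among the 119 other tested genes with TGACGTGG, 67 were higher (56.3%) and 31 lower (26.1%), with a median of 0.27, and among 10597 without it 41.5% were higher and 39.9% lower, with a median of 0.01.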

How the data were processed

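Messenger RNA of VCaP and LAPC4 cells was sequenced with a stranded kit. The submitters' processing notes name bcl2fastq 2.17, STAR, featureCounts of Subread and DESeq2 with GRCh38, and the authors deposited unnormalized read counts per gene in 1 table with 112 library columns. The annotation, strand setting and treatment of multiply aligned reads are not given in the sources used here. Groups came from the labels. The labels assign 4 to 10 libraries to a group, where the study's methods speak of 5 biological replicates, and every library was used. The members and lists were chosen with earlier results of these data known.

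Genes that reached 10 reads in 4 or more libraries of a line were tested with R 4.3.3 and edgeR 4.0.16 (glmQLFit and glmQLFTest, TMM factors), with the 8 groups of a line in one fit, or all 16 groups for comparisons between lines. P-values were adjusted by the Benjamini-Hochberg method over all genes tested. The standard error of a log2 fold change was taken as its size over the root of the F statistic, and intervals cover 95%. CPM used TMM-scaled library sizes within a line, and CPM per kb the MANE Select transcript of GENCODE 44, which also gave the positions. Paralogue ratios were tested with scipy 1.17.1. The scripts were tested on simulated data.

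All 40 members were accounted for. Values per library are given for members with the largest called rises and falls with R1881 at 22 h in each line and those called in opposite directions in both, and other members were given values after these were seen. From each pathway list the genes with the smallest adjusted p were named. Alternatives were DESeq2 1.42.0, library totals, upper-quartile factors, no filter, only the compared groups, control replicates 1 to 5 or from 6 onward, a GC covariate, a replicate block and the omission of single darolutamide replicates.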

Additional observations from a re-analysis of the deposited data

Results flagged for a closer look

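Of 96 groups of 4 to 10 libraries examined over 6 genes, 6 held a library whose gap to its neighbour took most of the range (Dixon's criterion), where chance gives about 1 in 20. The KDELR3 level in VCaP cells was 0.961 CPM in replicate 6 of DMSO at 22 h, with the others at 1.63 to 2.16. In replicate 2 of R1881 plus 500 nM darolutamide it was 6.70 CPM at 22 h (others 5.28 to 5.51) and 4.003 CPM at 8 h (others 3.49 to 3.57). The SEC23B level in VCaP cells was 165 CPM in the same replicate 2 at 8 h (others 173 to 174) and 143 CPM in replicate 3 of R1881 plus 2 µM darolutamide at 8 h (others 157 to 159). The SEC24D level in LAPC4 cells was 193 CPM in replicate 1 of R1881 plus 2 µM darolutamide at 8 h (others 205 to 209.7).

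The R1881 effect at 22 h differed between VCaP and LAPC4 cells, by edgeR's interaction test, for KDELR3 (3.06, adjusted p = 5.17e-50), SEC24D (2.504, 7.63e-67), TMED9 (1.74, 3.41e-45), SURF4 (1.70, 3.58e-60), SEC23B (1.09, 5.78e-44) and SEC31B (-1.57, 4.02e-15), given as VCaP minus LAPC4 on the log2 scale.

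In VCaP cells the R1881 effect differed between 22 and 8 h by the same test for KDELR3 (2.49, adjusted p = 1.27e-21), TMED9 (1.11, 1.75e-22), SURF4 (0.85, 6.5e-23), SEC24D (0.80, 9.44e-20), SEC23B (0.74, 1.73e-23) and SEC31B (-0.83, 0.000159), given as 22 h minus 8 h on the log2 scale.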

How the results depend on the processing

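Of the counts of members called, 330 of 371 values under an alternative stayed within 1.5 times the reported count, and 0 of the tested fold changes of KDELR3, SEC24D, TMED9, SURF4, SEC31B and SEC23B changed sign, while TMED3 and MCFD2 did under library totals in DMSO between the lines (-0.10 and -0.09). All counts of R1881 effects in VCaP cells were among the stable ones. In VCaP cells R1881 plus 2 µM darolutamide against DMSO at 8 h (21 members) gave 12 with control replicates 1 to 5, 9 with the replicate block and 14 to 22 without single darolutamide replicates, and the members past a log2 fold change of -1 with 2 µM against R1881 at 22 h (11) numbered 5 with library totals.

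In LAPC4 cells the counts were small. R1881 against DMSO at 22 h (2) gave 4 with library totals, 4 with upper-quartile factors, 1 with replicates 1 to 5, 0 with replicates from 6 onward, 9 with the GC covariate, 5 with the replicate block and 8 with both. With 2 µM against R1881 at 22 h (2) it was 1 by DESeq2, 1 with no filter, 4 with control replicates 1 to 5, 0 with those from 6 onward, 12 with GC, 1 with only the compared groups, 12 with the block, 20 with GC and block, and 0 to 4 without single replicates. With 500 nM (1) it was 0 with control replicates from 6 onward, 5 with GC, 0 with only the compared groups, 2 with the block, 11 with GC and block, and 0 to 2 without single replicates. Where 0 members were called, GC and block gave 2 for 2 µM against DMSO at 22 h, 2 for R1881 at 8 h, 2 for 2 µM against R1881 at 8 h, 2 for 2 µM against DMSO at 8 h and 4 for the difference between times, GC alone gave 1 for R1881 at 8 h, 2 for 2 µM against R1881 at 8 h and 6 for the difference between times, and library totals and upper-quartile factors 1 each for the latter. The cause was not tested. The shares of all genes called under the GC and block settings are not given here. It can therefore not be told whether calls rose for the members alone or over all genes. A GC value was at hand for 79.7% of tested genes in VCaP and 79.3% in LAPC4 cells, under 80%, so the GC check is void in these fits.

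The replicate numbers showed little pairing of the libraries on average: the deviations of same-numbered libraries correlated at a mean of -0.00511 over 149 pairs in VCaP cells, with 6 of 55 libraries closest to their own number, and 0.0549 over 161 pairs in LAPC4 cells, with 10 of 57. Single pairs ran from -0.501 to 0.455 in VCaP and from -0.573 to 0.597 in LAPC4 cells, so shared variation in some of them cannot be told from these means. Limits come from depth for SEC31B, KDELR3 in VCaP DMSO and COPZ2, which rest on few reads, from overlapping genes counted with an unknown strand setting, and from darolutamide groups of 4 or 5 libraries. KDELR3 in VCaP cells at 8 h was not called with replicates from 6 onward (0.31, adjusted p = 0.0536 by edgeR).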
